A study of Caenorhabditis elegans with 2 samples.

Results

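Nuclear hormone receptor genes were examined in a map of SOX-2 on the chromatin of late Caenorhabditis elegans embryos. Members were the protein-coding genes of the Ensembl WBcel235 annotation whose name begins with nhr-, which are 269 of 19973 nuclear protein-coding genes. SOX-2 is a transcription factor with an HMG box. The embryos came from strain RW12244, in which the endogenous sox-2 gene on the X chromosome carries a TY1, EGFP and 3xFLAG tag inserted with CRISPR (allele st12244). Chromatin of whole late embryos at 3.5 hours, obtained by egg bleaching, was precipitated with an antibody to GFP and sequenced (ChIP-seq). The labels give 1 group of 2 biological replicates and no second condition, so no difference between conditions could be tested. No control library was analysed here. Each library pools all cells of the embryo, so binding in few cells and weak binding in many cannot be told apart.

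The data are peak lists. The ranked list of the series, made by the authors from both replicates, held 8486 peaks on nuclear chromosomes. Its thresholded list held 677, of which 660 were nuclear. The irreproducible discovery rate (IDR) is an estimate of how poorly a peak's rank repeats between compared sets of peaks, and every thresholded peak had an IDR of at most 1%. Which sets each list compared was not established here. An IDR from a replicate's own list is not a comparison of the 2 replicates. Each peak has a summit and a signal, the authors' own value, whose scale no source used here states. Signals of the series lists run higher than those of each replicate's own list and are not compared with them. A summit was counted for a gene when it lay inside the gene or within 2000 bp of any of its annotated 5′ ends. Depth is unknown, since no list holds read counts.

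Nuclear hormone receptors are transcription factors with a zinc finger DNA-binding domain and a ligand-binding domain, and many are switched by small fat-soluble molecules. Nematodes hold far more of these genes than flies or mammals. A small group has clear relatives across animals, while most of the others descend from a gene related to the vertebrate receptor HNF4 and expanded within nematodes, with many copies on chromosome V. SOX proteins bind short sequences built around ATTGT or TTTGT. Transfer RNA (tRNA) genes are transcribed by RNA polymerase III from promoter elements inside the gene, the A box and the B box.

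SOX-2 was called at few nuclear hormone receptor genes, and most of those calls lay on tRNA genes. A thresholded summit was found at 4 of 269 members (1.49%, Wilson 95% interval 0.58 to 3.76), against 3.92% of all protein-coding genes. The members were nhr-17, nhr-255, nhr-48 and nhr-41. Of the 4 summits, 3 lay inside a tRNA gene, those at nhr-17, nhr-255 and nhr-41. Among all thresholded nuclear summits, a tRNA gene was 500 bp away or less for 17.9%. The conservative list, a second thresholded list of the series, called 5 members, the same 4 and nhr-25, against 3.95% of all genes. The 3 tRNA genes are shown with 30 bases on each side, read 5′ to 3′ on the strand of the tRNA gene from the NCBI WBcel235 sequence (the same assembly as the ce11 build of the files). Capitals mark the tRNA gene.
nhr-17, tRNA-Tyr gene C02B4.t2 (X:12665198-12665341, plus strand): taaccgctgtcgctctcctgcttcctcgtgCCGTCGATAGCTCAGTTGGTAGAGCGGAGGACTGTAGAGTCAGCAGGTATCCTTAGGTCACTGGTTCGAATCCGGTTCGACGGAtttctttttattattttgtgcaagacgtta
nhr-255, tRNA-Leu gene ZK678.t1 (X:15742020-15742163, plus strand): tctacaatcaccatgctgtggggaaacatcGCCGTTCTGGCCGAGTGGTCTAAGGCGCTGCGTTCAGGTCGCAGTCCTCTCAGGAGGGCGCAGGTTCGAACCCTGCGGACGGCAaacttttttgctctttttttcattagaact
nhr-41, tRNA-Glu gene Y104H12A.t1 (IV:1388186-1388317, minus strand): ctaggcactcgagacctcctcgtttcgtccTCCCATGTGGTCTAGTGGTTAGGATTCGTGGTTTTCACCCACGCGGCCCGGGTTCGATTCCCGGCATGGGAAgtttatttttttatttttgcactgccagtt

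All 3 tRNA genes hold the B box letters, searched on both strands as GGTTCGA followed, after any 2 bases, by CC, as do 394 of the 612 nuclear tRNA genes (64.4%). In the tRNA-Tyr gene these letters start at base 63 of 84, and the summit lies at base 51. In the tRNA-Leu gene they also start at base 63 of 84, with the summit at base 13. In the tRNA-Glu gene they start at base 51 of 72, with the summit at base 7. Within 100 bp of the summit the B box letters occurred at 3 of 86 ranked summits of members, against 2.36% of all ranked nuclear summits.

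At nhr-17 the peak was the strongest of any member. It spans 109 bp at X:12665216-12665324, inside an intron of nhr-17 (X:12663837-12667854, minus strand), and its summit at 12665278 lies 2576 bp downstream of the annotated 5′ end of nhr-17. The series signal was 207.2, rank 80 of 8486, with an IDR of 0.001%. Replicate 1 gave 111.9 and replicate 2 gave 98.1, and each replicate's own thresholded list held the peak, as did the conservative list. The nearest protein-coding 5′ end belongs not to nhr-17 but to the neuropeptide gene nlp-76, 1375 bp downstream of the summit on the strand of nlp-76. The summit therefore counts for nhr-17 by its position inside the gene alone.

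At nhr-255 the summit lay upstream of the gene. The peak at X:15741920-15742203 has its summit at 15742062, 548 bp upstream of the 5′ end of nhr-255 (X:15742610-15744298, plus strand). Its series signal was 202.3, rank 85, with 102.1 in replicate 1 and 95.9 in replicate 2, and it was thresholded in each replicate and conservative. A further summit inside a coding exon of nhr-255 was ranked only, with a series signal of 37.96 and an IDR of 84.8%. With summits near tRNA genes left out, nhr-255 had no thresholded summit.

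The receptor gene nhr-41, related to the insect receptor DHR78 and the vertebrate testicular receptors, had its summit 184 bp downstream of an annotated 5′ end and inside the gene (IV:1386215-1399353, plus strand). The peak at IV:1388139-1388422, with its summit at 1388281, had a series signal of 98.6, rank 461. The replicates gave 38.7 and 54.5, in replicates 1 and 2. It passed in replicate 2 with an IDR of 0.204% and not in replicate 1, where the IDR was 8.34%. It was in the conservative list.

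Reads from copies of a tRNA gene can be hard to place. All 36-base words of the 3 tRNA genes occurred more than once in the genome (100%). In the wider window from 100 bp before to 100 bp after the summit, the repeated share was 38% at nhr-17, 33.7% at nhr-255 and 28.3% at nhr-41. Away from tRNA genes, 76 of 82 ranked summits of members had no repeated 36-base word in that window. No source used here says how reads with several possible places were treated, and the part of repeated sequence in these signals was not tested.

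The thresholded summit at nhr-48 was the 1 of the 4 away from tRNA genes, with the nearest tRNA gene 34462 bp off. The gene is a relative of daf-12, which codes for the receptor of the steroid hormone dafachronic acid, and of nhr-8. Its peak at X:15707446-15707729 has the summit at 15707588, in the promoter 625 bp upstream of the most upstream 5′ end of nhr-48 (X:15708213-15716875, plus strand), and nhr-48 owns the nearest protein-coding 5′ end. The series signal was 107.0, rank 378, with an IDR of 0.207%. Replicate 1 gave 52.2 and replicate 2 gave 53.1, a mean of 52.7 ± 0.635 (SD, n = 2), and the peak was in the thresholded list of each replicate and in the conservative one. No 36-base word within 100 bp of this summit was repeated in the genome. The summits at nhr-48 and nhr-255 lie 34474 bp apart on X.

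Neither CATTGT nor CTTTGT, which together make the SOX core CWTTGT (W is A or T), lay within 50 bp of any of the 4 thresholded summits. Of all 660 thresholded nuclear summits 20.2% held the core, and of those away from tRNA genes 24.0%. The 121 bases around the summits of nhr-48 and nhr-25 are shown on the plus strand, as the 1 thresholded summit of a member away from tRNA genes and as a summit of a member on which the lists of the series differ. Capitals mark the shorter core ATTGT or TTTGT on either strand, of which the nhr-48 window has none.
nhr-48 (X:15707528-15707648): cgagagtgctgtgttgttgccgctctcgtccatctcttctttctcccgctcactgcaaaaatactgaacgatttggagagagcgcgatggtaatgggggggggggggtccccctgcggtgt
nhr-25 (X:13011522-13011642): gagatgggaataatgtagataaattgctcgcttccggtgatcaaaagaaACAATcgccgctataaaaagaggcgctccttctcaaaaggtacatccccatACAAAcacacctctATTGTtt

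**Figure D1:**
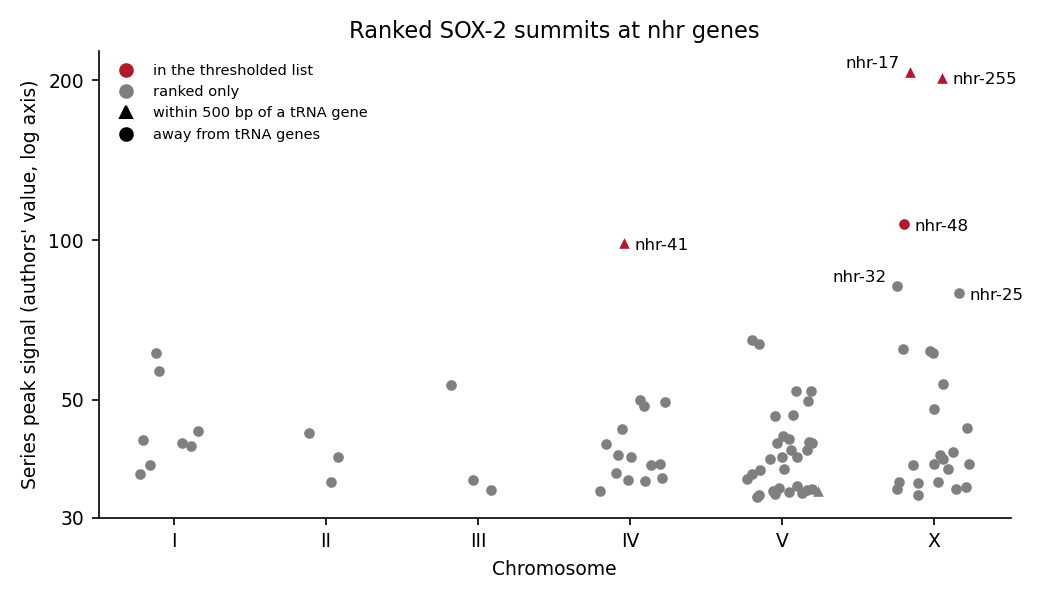
Series signal of the 86 ranked summits at nuclear hormone receptor genes (vertical log axis, the authors' value), by chromosome. Each point is 1 summit, spread sideways only to keep points apart, with thresholded summits in red, other ranked summits in grey, and triangles for summits within 500 bp of a tRNA gene. The 4 red points lie on IV and X between 98.6 and 207.2, and 3 of them are triangles.

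The gene nhr-25 codes for the worm relative of insect FTZ-F1 and vertebrate SF-1, a receptor needed in the embryonic and larval epidermis. Its strongest summit, at X:13011440-13011723 with the summit at 13011582, lies in an intron 2316 bp downstream of the nearest 5′ end (gene at X:13008493-13013964, plus strand). The series signal was 79.4. In the ranked list used here its IDR was 67.5%, and it was not thresholded, while in the other ranked list of the series its IDR was 0.826%, and it was in the conservative list. Replicate 1 gave 47.98 and replicate 2 gave 32.6, and the peak passed in neither replicate's own list. Further ranked summits of nhr-25 had series signals of 44.2, 37.8 and 34.0, which makes 4 in all, and the weakest of them, in an intron, held CWTTGT.

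Thresholded members and the strongest others were separated by signal in the series list. The lowest signal of a thresholded member was 98.6, at nhr-41, and the highest of any other member was 81.9, at nhr-32. Over all ranked nuclear summits there was no such gap, with thresholded summits down to 39.4 and others up to 2123.4. Those others include 96 summits past the IDR limit that were left out of the thresholded list, none at a member. In the ranked list used here, the members just inside the IDR threshold of 1% were nhr-48 (0.207%) and nhr-41 (0.128%). Those just outside were nhr-1 (5.35%), nhr-32 (6.16%) and nhr-228 (6.19%). The order differed in the other ranked list of the series, where these had 8.2%, 3.87% and 21.3%, and nhr-49 had 2.19%. The nhr-32 summit, at X:13251505-13251788 and 317 bp upstream of the 5′ end, had 45.2 in replicate 1, while replicate 2 ranked a summit at nhr-32 farther than 100 bp away, with a signal of 28.2. The summit of nhr-1, which acts at the neuromuscular junction, lay 343 bp upstream of the 5′ end, with a series signal of 61.9 and replicate signals of 29.9 and 28.0. The other members among the 12 strongest below the threshold were nhr-15, nhr-228, nhr-3, nhr-49, nhr-28, nhr-40, nhr-10, nhr-95 and nhr-190, whose strongest summits had series signals of 51.9 to 64.7. Of these, nhr-190 had 39.7 in replicate 1 and was not matched in replicate 2, and the others were ranked in both replicates.

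Ranked summits as a whole, which include many peaks that do not repeat, lay at 66 of 269 members (24.5%, 19.8 to 30), against 33.7% of all protein-coding genes. The other 203 members had none. The 66 members had 86 summits, and 4 summits counted for a pair of members each. Among the 86 summits the median signal was 39.1, and among all ranked nuclear summits it was 40.7. Of the 86, 4 were thresholded (4.65%), against 7.78% of all ranked nuclear summits. A single ranked summit was found at 49 members, 2 at 13 members and 3 or more at 4 members, which were nhr-46 with 5, nhr-25 with 4, and nhr-49 and nhr-40 with 3 each. Shares among all genes include the members themselves. Their intervals cover counting error over genes only.

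Of 9 members with clear relatives outside nematodes, 7 had a ranked summit, against 33.7% of all genes, and 2 a thresholded one, nhr-48 and nhr-41, against 3.92%. Among all genes of 4000 bp or longer, a length this list mostly exceeds, 53.9% had a ranked and 6.82% a thresholded summit. The list was drawn up with earlier results of these data known. Beside nhr-25, the ranked members were nhr-67, the relative of tailless, with a series signal of 44.0 at 782 bp upstream of its 5′ end and replicate signals of 27.0 and 15.4. The relative of GCNF, nhr-91, had 39.8, in a non-coding gene 1645 bp upstream. The receptor of toxin and cholesterol responses, nhr-8, had summits of 37.6 and 35.2. The molting receptor nhr-23, related to ROR, had 36.2, and the nearest 5′ end to that summit was that of cnnm-4. None of these summits had an IDR under 55.7%. The NR4A relative nhr-6 and the Rev-erb relative nhr-85 had no ranked summit. The median gene length of the list was 5531 bp, against 2309 bp for all members and 2027 bp for all protein-coding genes.

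Of 14 receptors known from fat, energy or diet responses, 9 had a ranked summit, against 33.7% of all genes and 53.9% of those of 4000 bp or longer, and none a thresholded one, against 3.92% and 6.82%. The strongest single summit of the list was at nhr-49, which controls fatty acid desaturation and breakdown. Its 3 summits had series signals of 61.3, 56.7 and 41.4, of which the strongest lay 361 bp upstream of a 5′ end and gave 31.9 in replicate 1 and 37.7 in replicate 2. The IDR of that summit was 7.28% in the ranked list used here and 2.19% in the other. A summit in nhr-28 had 61.2, in an intron, and one upstream of nhr-10, which acts in propionate metabolism, had 53.3. The fat metabolism receptors nhr-62, nhr-80, nhr-13, nhr-64, nhr-76 and nhr-114, the last known from vitamin B12 responses, had strongest summits between 35.3 and 43.8. Their IDR was 36.3% to 84.8%. Those of nhr-80 and nhr-64 were matched in replicate 2 only, and that of nhr-114 in replicate 1 only. No ranked summit lay at nhr-66, nhr-68, nhr-14, nhr-86 or nhr-69. The median gene length of this list was 4509 bp.

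The list of 6 receptors of embryonic development shares nhr-23, nhr-25 and nhr-67 with the conserved receptors. In it 4 had a ranked summit, against the same 33.7% and 53.9%. None had a thresholded one, against 3.92% and 6.82%, while the conservative list held a summit of nhr-25. The median gene length of this list was 5258 bp. The member not yet described is nhr-40, which acts in embryonic muscle and body shape. Its strongest summit, 567 bp upstream of a 5′ end, had a series signal of 53.6 and replicate signals of 36.9 and 19.4. Neither nhr-2 nor nhr-60 had a ranked summit.

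On chromosome X 15 of 23 members had a ranked summit (65.2%, 44.9 to 81.2), against 37.6% of all genes on X. Thresholded summits lay at 3 of the 23 (13.0%, 4.54 to 32.1), against 5.57% of all genes on X. Those at nhr-17 and nhr-255 lay inside tRNA genes, and X holds 276 of the 612 nuclear tRNA genes. With summits near tRNA genes left out, nhr-48 alone of these members had a thresholded summit. Chromosome V holds 167 of the 269 members (62.1%), and 4994 of all 19973 genes. There 34 of 167 members had a ranked summit (20.4%, 15 to 27.1), against 25% of all genes on V, and none had a thresholded one (0 of 167, upper limit 2.25), against 2.16%. The shares were 17.4% of 23 members on I, against 42.7% of all genes there, 13.3% of 15 on II, against 32.5%, 25% of 8 on III, against 41.7%, and 27.3% of 33 on IV, against 30.8%. On IV the thresholded share was 3.03%, that of nhr-41, against 3.47% of all genes there. None of these differences was tested.

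**Figure D2:**
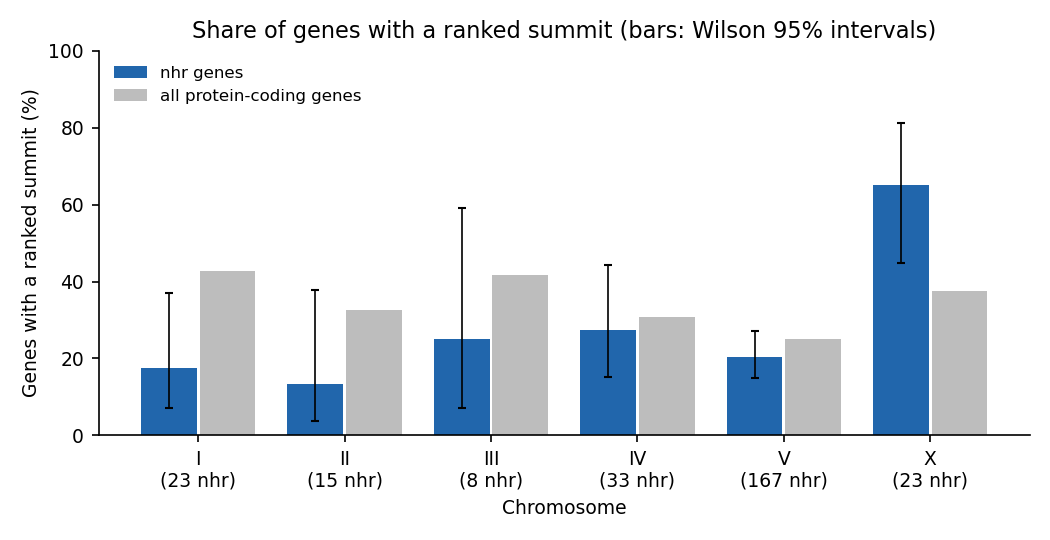
Share of genes with a ranked summit, in percent, for nuclear hormone receptor genes (blue, with Wilson 95% intervals) and all protein-coding genes (grey) on each chromosome. The blue bar exceeds the grey one on X alone, at 65.2% against 37.6%.

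Gene length differed between these groups, and a longer gene gives more room for a summit. Members on X had a median length of 4483 bp, against 2548 bp for all genes on X, and members on V had 2146 bp, against 1754 bp for all genes on V. Among members of 4000 bp or longer, 33 of 57 had a ranked summit (57.9%), against 53.9% of all genes of that length. Among members from 2000 bp to under 4000 bp, 26 of 119 had one (21.8%), against 31.1% of all genes. Among members shorter than 2000 bp, 7 of 93 had one (7.53%), against 26.2% of all genes. On X alone, 13 of 15 members of 4000 bp or longer had a ranked summit (86.7%, 62.1 to 96.3), against 55.5% of all genes of that length on X. Among members on X, 1 of 4 from 2000 bp to under 4000 bp had a ranked summit, against 34.9% of all genes on X of that length, and 1 of 4 shorter ones, against 26.1%. On V 7 of 17 members of 4000 bp or longer had a ranked summit (41.2%), against 48.5% of all genes of that length on V. From 2000 bp to under 4000 bp, 21 of 85 members on V had one (24.7%), against 24.7% of all such genes on V. Of shorter members on V, 6 of 65 had one (9.23%), against 19.7%. By nearest protein-coding 5′ end within 2000 bp, which leaves out the rest of the gene body, 44 of 269 members had a ranked summit (16.4%), against 22.4% of all genes, and 3 a thresholded one, against 2.26% of all genes. The part of gene length in the chromosome shares was not tested.

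Many members stand in clusters. With at most 50 kb between neighbours, 14 clusters of 5 or more members held 115 genes, of which 20 had a ranked summit (17.4%). Outside them 46 of 154 members had one (29.9%). Both shares stand against 33.7% of all protein-coding genes. On V the shares were 17.2% of 87 clustered members and 23.8% of the 80 others, against 25% of all genes on V. These differences were not tested. The 2 clusters of 19 members, both on V, differed in their counts. At V:2192485-2296977 7 members had a ranked summit, namely nhr-13, nhr-56, nhr-134, nhr-96, nhr-182, nhr-59 and nhr-228, as did 6 of 17 other genes in the interval. At V:392628-541485 2 members did, nhr-123 and nhr-130, and 5 of 29 other genes. In 4 clusters no member had a ranked summit, at I:11429014-11480071 (6 members), I:12327982-12443780 (7), V:1603906-1629432 (7) and V:6980587-7000651 (7). Of the other genes in these intervals, in the same order, 2 of 6, 3 of 30 and 0 of 1 had one, and the last interval held no other gene. The 1 thresholded summit in a cluster was that of nhr-17, in a cluster of 5 members at X:12663837-12808318.

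By the same rule of position, 7 tRNA genes lay at 5 of the 269 members, and the like share over all genes was not computed. Of the 7 tRNA genes, 4 had a ranked summit within 500 bp (57.1%), against 53.1% of all nuclear tRNA genes. A thresholded summit lay within 500 bp of 3 (42.9%), against 22.1% of all nuclear tRNA genes and 29.0% of those on X. Those at nhr-17 and nhr-255 are on X, and 7 genes are too few to compare shares. A further tRNA-Tyr gene, in nhr-150, had a ranked summit of 33.7 at 49 bp. In all, 4 of the 86 ranked summits of members had a tRNA gene at 500 bp or less (4.65%), against 3.41% of all ranked nuclear summits. The tRNA-Ala gene in nhr-150 and the 2 tRNA-Asn genes upstream of nhr-193 had no ranked summit within 500 bp.

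Summits of members lay mostly at promoters and in introns. Of the 86, 38 were promoter-proximal (44.2%, 34.2 to 54.7), from 1000 bp upstream to 200 bp downstream of a protein-coding 5′ end, against 35.2% of all ranked summits. Introns held 22 (25.6%), against 23.4%, and coding exons 14 (16.3%), against 11.0%. Intergenic sequence held 7 (8.14%), against 24.9%, a class that the rule for members limits, since a summit beyond 2000 bp of a 5′ end counted only inside a gene. The rule thereby raises the other shares against those of all ranked summits. Under the same rule for all genes, 22.2% of 90 member pairs of summit and gene lay from 500 bp upstream to 200 bp downstream of a 5′ end. The share over 9647 pairs of all genes was 25.6%. Inside the gene lay 54.4% of the member pairs, against 46.2%. For 70 of the 86 summits the nearest protein-coding 5′ end was that of the member itself (81.4%). Among the others, the summit given to nhr-15 lay 1149 bp upstream of it and 7 bp upstream of the 5′ end of phf-10.

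**Figure D3:**
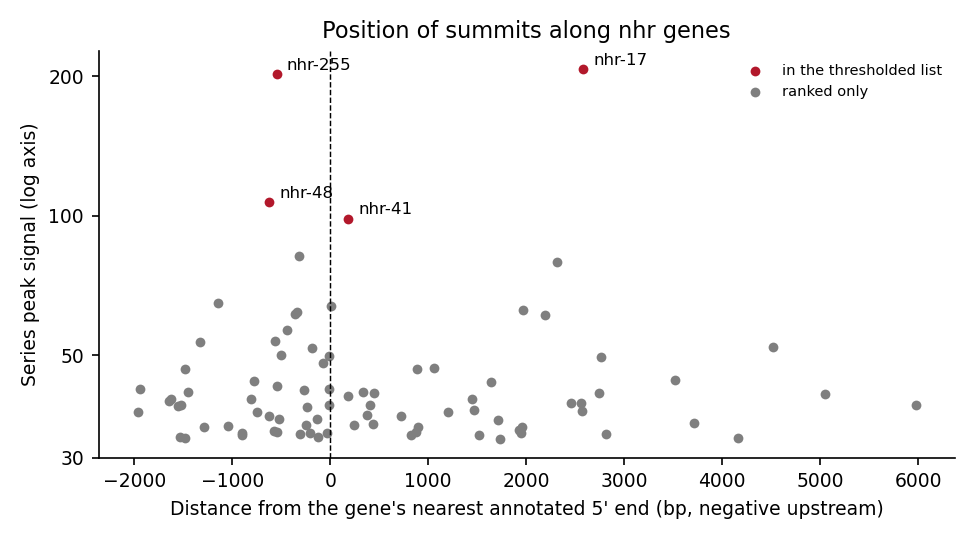
Series signal (vertical log axis) against the distance of each summit from the nearest annotated 5′ end of its member, in bp, negative upstream, for 86 of the 90 pairs of summit and member. The thresholded summits (red) lie at -625, -548, 184 and 2576 bp.

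The SOX core CWTTGT lay within 50 bp of 16 of 86 summits of members (18.6%, 11.8 to 28.1), against 16.6% of all ranked nuclear summits. In equally wide windows placed 300 bp away on both sides, the mean share was 8.14% for members and 10.2% for all ranked nuclear summits. The 16 summits with the core were ranked only, with signals of 33.6 to 64.7. The shorter core WTTGT lay at 61.6% of the members' summits, against 57.6% of all. The windows of the 3 strongest summits with the core are shown on the plus strand, with CWTTGT in capitals on either strand (a match is a description of the sequence).
nhr-15 (V:311512-311632): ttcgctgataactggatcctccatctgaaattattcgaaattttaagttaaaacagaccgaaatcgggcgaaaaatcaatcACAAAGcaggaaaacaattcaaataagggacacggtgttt
nhr-228 (V:2281708-2281828): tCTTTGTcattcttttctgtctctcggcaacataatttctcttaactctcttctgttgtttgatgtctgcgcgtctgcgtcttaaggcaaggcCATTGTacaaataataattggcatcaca
nhr-3 (X:14560407-14560527): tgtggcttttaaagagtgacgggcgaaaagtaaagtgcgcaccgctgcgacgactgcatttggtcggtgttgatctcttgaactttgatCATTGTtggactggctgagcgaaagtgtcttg

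At nhr-15 the core lay 21 bp from the summit, and the series signal of 64.7 came with 36.4 in replicate 1 and 28.5 in replicate 2. At nhr-228 CATTGT lay 33 bp from the summit, itself 9 bp downstream of the 5′ end, and the series signal of 63.7 came with 25.4 and 38.3 in replicates 1 and 2. At nhr-3 CATTGT lay 29 bp from the summit, in an intron, with a series signal of 62.5 and replicate signals of 40.4 and 21.8. The 3 differed in which replicate was higher, and none passed in either replicate's own list.

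Both replicates ranked most summits of members, but their signals were only loosely related among the summits that were not thresholded. A summit within 100 bp was ranked in replicate 1 for 72 of the 86 summits, in replicate 2 for 64, in both for 53 (61.6%), against 59.9% of all ranked nuclear summits, and in neither for 3. Over the 53 the Spearman rho was 0.368 and the Pearson r on log2 values 0.703, against 0.478 and 0.728 over 5082 of all ranked summits. Over the 49 that were not thresholded, rho was 0.203 and r 0.257. That set lacks the strongest summits by its choice, and the same was not computed over all ranked summits. Peaks share their libraries, so these are descriptions. Replicate 1 was higher at 32 of the 53. In its own thresholded list, replicate 1 called 3 members (3.23% of all genes were called) and replicate 2 called 4 (3.30%). The member absent from replicate 1 was nhr-41. The longer ranked list of replicate 1 reached 158 members (67.3% of all genes) and that of replicate 2 reached 160 (67.7%).

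**Figure D4:**
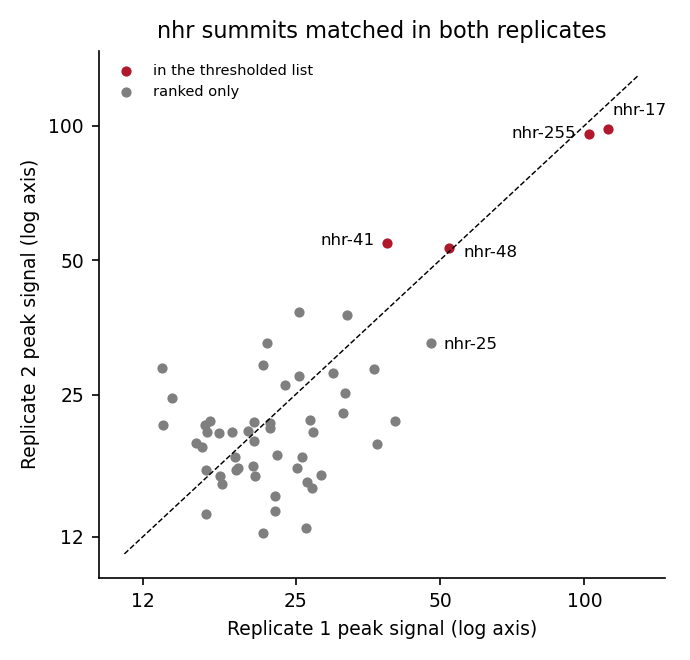
Peak signal in replicate 1 (horizontal log axis) and replicate 2 (vertical log axis) at the 53 summits of nuclear hormone receptor genes ranked in both. Thresholded summits are red and the dashed line marks equal signals. The summits at nhr-17 and nhr-255 lie above 95 in both replicates, apart from all others.

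Receptor genes with other names and genes of receptor function were read by the same rule. Of 5 further receptor genes, daf-12 and sex-1 had ranked summits and none a thresholded one, against 33.7% and 3.92% of all genes. In introns of daf-12 the summits had series signals of 53.7, with an IDR of 3.18%, and 40.4. The nuclear receptor sex-1, which counts X chromosomes in sex determination, had 55.8 and 44.0, each matched by a summit of replicate 1 and by none of replicate 2. The neuronal receptors fax-1, odr-7 and unc-55 had no ranked summit. None of 7 genes linked to dafachronic acid or its sterol precursors, daf-9, daf-36, dhs-16, hsd-1, ncr-1, ncr-2 and strm-1, had one. The share was 33.7% of all genes and 53.9% of those of 4000 bp or longer, and the median length of the 7 genes was 4266 bp.

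Of 3 coregulator genes, 2 had a thresholded summit at the promoter, against 3.92% of all genes with any thresholded summit and 6.82% of those of 4000 bp or longer. The median length of the 3 genes was 8317 bp. The gene cbp-1 codes for a histone acetyltransferase that acts as a coactivator, and its summit 921 bp upstream of the 5′ end had a series signal of 119.3, with 69.99 in replicate 1 and 58.0 in replicate 2. The gene din-1 codes for the corepressor of DAF-12. Its summit 706 bp upstream of a 5′ end had a series signal of 85.8, with 41.9 and 43.2 in replicates 1 and 2. Both summits lay far from tRNA genes and held no CWTTGT within 50 bp. The mediator subunit gene mdt-15, a partner of NHR-49, had no ranked summit.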

How the data were processed

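ChIP-seq peak lists of 2 replicates and of the series were used as deposited, on the ce11 build, per the deposited text list. They were made by the authors from filtered alignments and a control. No source used here names the aligner or caller. Peak signal is the authors' value in the deposited lists. The −log10 IDR of the deposited ranked lists is the authors' too. Tested on the files, thresholded peaks have a −log10 IDR of at least 2, and 96 nuclear peaks past it are not thresholded, none at a member. A further 4 signal columns of the series ranked lists name no sample and were left out.

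Summits were placed on the Ensembl release 115 annotation with Python 3.11.15, pandas 2.3.3 and numpy 2.4.6. tRNA isotypes came from RefSeq by WormBase ID. The placing was tested on simulated summits. Replicate signals were taken from the nearest summit within 100 bp. Shares have Wilson 95% intervals. Named genes are the thresholded members, the 12 strongest others, list members with a ranked summit, members next to the threshold, and clusters. Members and lists were chosen with earlier results of these data known. No set test was run. Alternatives changed the window, the assignment, the list, the replicate, the tRNA distance and the motif.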

Additional observations from a re-analysis of the deposited data

How the results depend on the processing

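Of 39 recomputed main values, 28 stayed close. Close meant within 1.5 times for counts and within the 3.68 median SD between replicates for the median signal. For the motif share and the correlation it meant within a 95% interval. The count of thresholded members could not move in the stronger part of the list, which starts at 40.7, since their lowest signal was 98.6. By nearest 5′ end, ranked members fell from 66 to 44, just at the limit for close. With a window of 5000 bp, 108 members had a ranked summit (40.1%, against 53.0% of all genes) and 8 a thresholded one (2.97%, against 7.09%), adding nhr-102, nhr-114, nhr-277 and nhr-281. With summits near tRNA genes left out, 1 member, nhr-48, had a thresholded summit, against 3.35% of all genes. In the stronger part of the ranked list 33 members had a summit (12.3%, against 19.3% of all genes). Each replicate's own, longer ranked list gave 158 to 160 members, against 67.3% and 67.7% of all genes, with a median signal of 15.9 to 17.3 on its own scale. The motif share was 34.9% within 100 bp, 61.6% for WTTGT and 11.6% for CATTGT alone. The conservative list called 5 members, with nhr-25 added, and replicate 1 alone called 3, without nhr-41. No paired analysis was possible because there is 1 group and no contrast between groups. Without read counts, depth sets an unknown limit on weak summits, and a member with no ranked summit is not shown to be unbound.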
